A study of Rattus norvegicus with 20 samples.

Results

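Urea carriers and the machinery of organic osmolytes were followed through 4 groups of rat kidney libraries by way of 7 genes. They were the rows of the deposited table whose symbol was Slc14a1, Slc14a2, Nfat5, Akr1b1, Slc5a3, Slc6a6 or Slc6a12. All 7 were found among 34681 rows, and all 7 were among the 15954 rows that passed a filter on low values, which asked for a normalized read count of at least 10 in at least 3 libraries.

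The study examined acute kidney injury after trauma in rats, by stranded, paired-end mRNA sequencing of RNA from whole frozen kidney samples. Its labels give 6 libraries as Sham, 6 as RM, 5 as HS and 3 as RM-HS, and no source used here gives the strain, sex, age, time after injury or what the Sham procedure was. The labels do not spell out RM and HS, which in this field are usual abbreviations of rhabdomyolysis and haemorrhagic shock, and RM-HS is the label of the combined group. Its design text counts 5 RM libraries where the labels give 6, and the 6 are kept here. Whether the libraries of a group stem from different animals is not stated, so that the p-values reflect the spread among libraries, technical spread included.

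The inner medulla of the kidney is salty and rich in urea, and its cells live with both. Urea leaves the terminal collecting duct through products of Slc14a2 (the UT-A carriers) and is recycled through the product of Slc14a1 (UT-B) in the descending vasa recta and in red blood cells. Against the salt, medullary cells gather small organic solutes. Slc5a3 brings in myo-inositol, Slc6a12 betaine and Slc6a6 taurine, while Akr1b1, aldose reductase, makes sorbitol from glucose. The transcription factor Nfat5 (also called TonEBP) switches on Slc5a3, Slc6a12, Slc6a6, Akr1b1 and Slc14a2 in hypertonic surroundings, through a DNA element named TonE.

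On the rn6 build, as the table gives it, Slc14a1 (GSRG0014297) lies at chr18:74461065-74485171 and Slc14a2 (GSRG0014299) at chr18:74508069-74941389, so the urea transporter genes are neighbours 22898 bases apart. Slc6a12 (GSRG0021860, chr4:153921199-153941345), Slc6a6 (GSRG0023364, chr4:123642194-123713319) and Akr1b1 (GSRG0022751, chr4:61706866-61720959) share a chromosome but lie far from each other. Slc5a3 (GSRG0007099) occupies chr11:32229366-32231799, a row of only 2434 bases. Nfat5 (GSRG0014863) lies at chr19:38446059-38533735, and an unnamed row at 6.98 to 51.5 normalized reads lies within it, against 2436 or more for Nfat5 itself.

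The stretches around the transcription starts are shown for the members that differed most between the groups, and for Slc6a6, because Nfat5 acts through an element that can be looked for there. RefSeq promoter windows on the GRCr8 build matched 5 of the 7 members with 6 windows of 300 bases, each from 250 bases before the start to 50 after it, and Akr1b1 and Nfat5 are named only. Slc14a2 has 2 windows, 392.962 kb apart, of which the distal one is given first. Capitals mark a match to TonE, and each window is written 5′ to 3′ along its gene's strand.
Slc14a2, distal start (chr18:74314497-74314796, minus strand): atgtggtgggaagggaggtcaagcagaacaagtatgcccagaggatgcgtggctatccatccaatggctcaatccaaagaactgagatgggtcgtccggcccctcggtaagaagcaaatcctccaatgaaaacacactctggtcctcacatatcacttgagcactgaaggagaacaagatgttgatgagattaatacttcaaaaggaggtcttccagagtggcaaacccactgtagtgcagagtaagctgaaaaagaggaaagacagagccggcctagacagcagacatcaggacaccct
Slc14a2, proximal start (chr18:73921535-73921834, minus strand): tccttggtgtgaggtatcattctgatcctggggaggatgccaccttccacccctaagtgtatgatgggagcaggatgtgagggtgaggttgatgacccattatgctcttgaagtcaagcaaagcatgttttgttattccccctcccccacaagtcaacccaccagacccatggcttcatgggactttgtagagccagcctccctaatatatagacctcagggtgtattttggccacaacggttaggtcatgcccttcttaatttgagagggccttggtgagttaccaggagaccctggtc
Slc6a12 (chr4:156257268-156257567, plus strand): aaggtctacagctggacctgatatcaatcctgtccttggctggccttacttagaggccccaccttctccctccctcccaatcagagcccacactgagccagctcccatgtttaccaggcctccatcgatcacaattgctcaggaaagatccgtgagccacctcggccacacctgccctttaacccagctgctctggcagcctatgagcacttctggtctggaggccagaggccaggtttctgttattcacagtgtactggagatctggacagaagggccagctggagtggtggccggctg
Slc5a3 (chr11:44799537-44799836, plus strand): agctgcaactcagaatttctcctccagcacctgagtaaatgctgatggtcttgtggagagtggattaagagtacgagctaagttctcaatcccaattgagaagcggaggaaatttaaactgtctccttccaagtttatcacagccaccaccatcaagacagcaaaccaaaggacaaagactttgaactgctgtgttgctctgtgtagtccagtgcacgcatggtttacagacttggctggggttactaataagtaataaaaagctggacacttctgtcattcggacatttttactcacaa
Slc6a6 (chr4:125752252-125752551, plus strand): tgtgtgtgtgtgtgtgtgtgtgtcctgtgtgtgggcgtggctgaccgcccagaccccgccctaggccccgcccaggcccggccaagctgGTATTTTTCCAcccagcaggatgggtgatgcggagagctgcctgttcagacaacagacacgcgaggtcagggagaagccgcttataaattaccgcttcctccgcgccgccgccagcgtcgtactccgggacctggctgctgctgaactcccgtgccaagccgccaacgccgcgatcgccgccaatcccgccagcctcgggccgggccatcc
A TonE match was found in 1 of the 6 windows, that of Slc6a6, where it reads on the opposite strand from 161 to 151 bases before the start. Among all 33469 windows of this length, 5.98% held a TonE match, and its core TGGAAA, which TonE contains, was in 22.7%, with both strands searched. The core was likewise in the Slc6a6 window alone. These are letter matches within a short window, and elements elsewhere were not examined.

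Libraries held 45047179 to 109940948 reads in the table, of which 42.2% to 54.7% lay on 14 mitochondrial rows. Every library had abundant Umod, the marker of the thick ascending limb, at 53265 normalized reads or more. Its level was not even: 132353 to 235326 in Sham, 60680 to 139783 in RM, 53265 to 107413 in HS and 118272 to 132824 in RM-HS. Thick ascending limb genes summed to 183758 to 308072 in Sham, 95298 to 209376 in RM, 79528 to 136071 in HS and 143730 to 173900 in RM-HS. The part of this segment in the members' values was not tested. The Sham libraries differed among themselves in early proximal tubule genes. Slc5a2, the glucose transporter of that segment, reached 6791 normalized reads in Sham 1 and 7863 in Sham 6 and only 43.1 to 396 in the remaining Sham libraries, while the 14 injured libraries had at least 9389. Comparisons were therefore also made with Sham 1 and Sham 6 as the only controls, a pair picked from measured markers and not from a label. Library names begin with R in all Sham and RM-HS libraries, in RM 1 and in HS 1 to 3, and with S in the other 5 RM and 2 HS libraries, so that the letter and the injury cannot be told apart for most of RM.

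Against all 6 Sham libraries, the inositol carrier Slc5a3 rose in all 3 injury groups. The betaine carrier Slc6a12 and the urea carrier gene Slc14a2 fell in all 3. Akr1b1 fell in HS and RM-HS, Slc14a1 fell in RM, and Nfat5 rose in HS. Slc6a6 was called in none of these 3 comparisons. By limma's test with an adjusted p under 0.05, 4 of 7 members were called in RM, 5 in HS and 4 in RM-HS. The same rule called 53% of all tested genes in RM, 46.4% in HS and 42.3% in RM-HS, so the members' shares of 57.1%, 71.4% and 57.1% stood against a high background. The 3 comparisons use the same 6 Sham libraries. Normalized values below are the authors' read counts scaled by library, and fold changes are log2 differences of value + 1 with their standard errors. Adding 1 shrinks the change of low values, but a mean of logs also gives libraries with few reads much weight. For Slc14a2 in RM this scale gave -5.48, where edgeR gave -2.17 and the mean was 4.53 times lower.

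**Figure D1:**
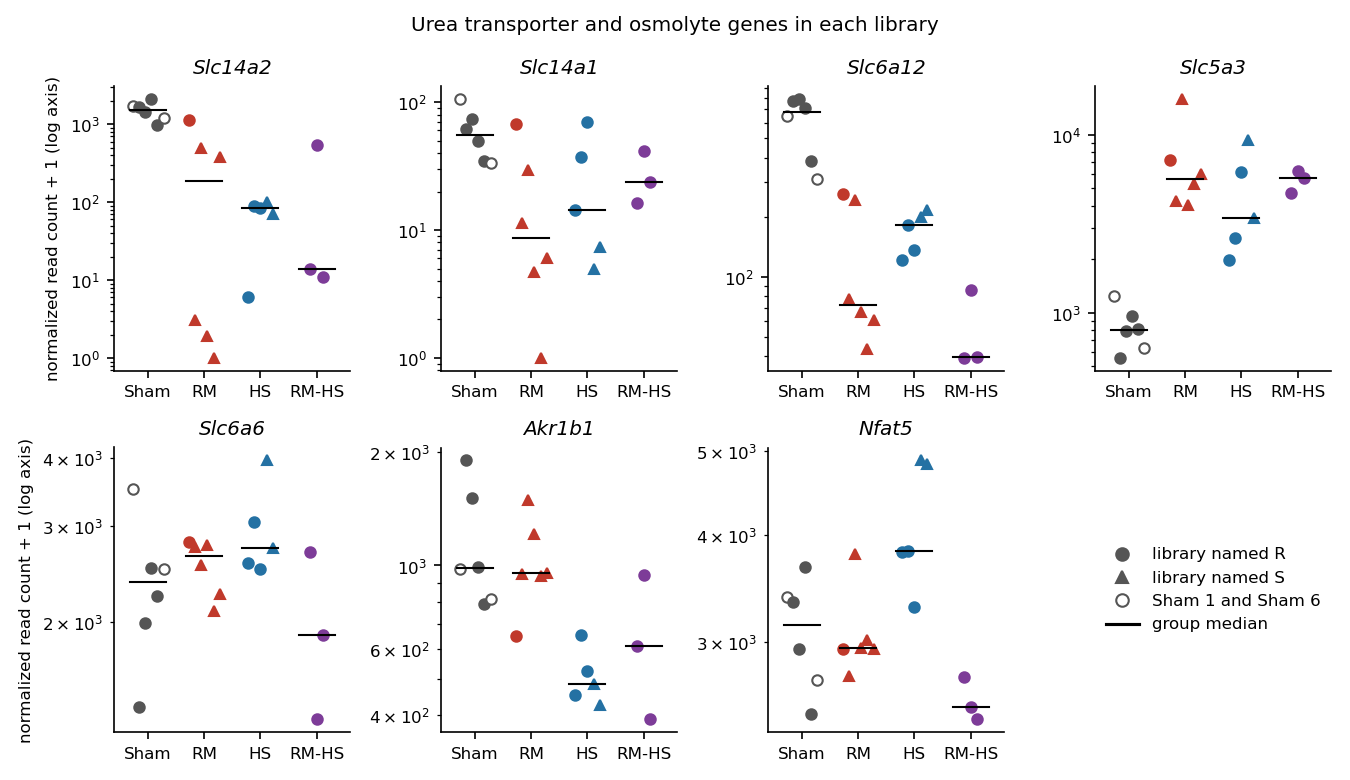
Normalized read count plus 1 (log axis) of each of the 7 genes in every library, by group; each point is a library, triangles are libraries whose name begins with S, open circles are Sham 1 and Sham 6, and bars are group medians. Slc5a3 lies above every Sham library and Slc6a12 below every Sham library in all 14 injured libraries.

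In Slc14a2, the 6 Sham libraries ran from 984 through a median of 1538 to 2111 normalized reads, with a mean of 1510 ± 400 (SD, n = 6). The RM libraries ran from 0 through a median of 188 to 1133. RM 1 was at 1133 and reached into the Sham range, RM 3 and RM 6 were at 491 and 374, and RM 2, RM 4 and RM 5 held 2, 1 and 0 reads. A count of 0 in RM 5 allows up to 3.33 normalized reads, a limit that covers counting error only. In HS the libraries stood at 4.99, 87.3, 83.0, 99.9 and 68.8, all below every Sham library. In RM-HS they stood at 13.1, 536 and 9.98, also all below Sham, with RM-HS 2 far above the other two.

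The mean of Slc14a2 was 4.53 times lower than in Sham in RM, 21.9 times lower in HS and 8.09 times lower in RM-HS. On the log2 scale the falls were -5.48 ± 1.52 in RM (limma adjusted p = 0.0051), -4.87 ± 1.60 in HS (limma adjusted p = 0.017) and -5.07 ± 1.87 in RM-HS (limma adjusted p = 0.034). The errors are wide because libraries within RM and RM-HS spanned from 0 to 1133 and from 9.98 to 536 normalized reads. Against Sham 1 and Sham 6 only, at 1700 and 1188, the differences were of nearly the same size, at -5.44 ± 2.38, -4.83 ± 2.44 and -5.03 ± 2.66, but none passed (limma adjusted p = 0.09, 0.15 and 0.17). In RM the call was also lost with the name letter as a covariate (-4.00, limma adjusted p = 0.18), with edgeR (-2.17, adjusted p = 0.083) and with DESeq2 (-2.17, adjusted p = 0.13). With only libraries named R it was -0.37 (limma adjusted p = 0.93), but there RM 1, the RM library with the most Slc14a2, stands alone for RM. It was lost in HS without HS 1 (-4.11, limma adjusted p = 0.053) and with the letter (-4.16, limma adjusted p = 0.072), and in RM-HS with edgeR (-3.01, adjusted p = 0.097), with DESeq2 (adjusted p = 0.091), and without Sham 4 (limma adjusted p = 0.0524), RM-HS 1 or RM-HS 3 (limma adjusted p = 0.15 for each).

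Slc14a1, the vasa recta and red cell urea carrier, was a low gene here, with 4 to 138 reads in all libraries but RM 5. Sham ran from 32.6 through a median of 54.6 to 105 normalized reads and RM from 0 through a median of 7.72 to 66.7. RM 1 lay within the Sham range and the other 5 RM libraries lay below it. HS stood at 13.3, 36.3, 68.5, 3.92 and 6.40, and RM-HS at 15.2, 40.7 and 22.8, both overlapping Sham. Slc14a1 fell by 2.56 ± 0.80 in RM (limma adjusted p = 0.011), a difference of -1.71 ± 0.84 in HS did not pass (limma adjusted p = 0.1), and that in RM-HS was -1.12 ± 0.98 (limma adjusted p = 0.37, 95% interval -3.16 to 0.91).

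The RM call for Slc14a1 did not stand when the name letter entered the model (-0.18, limma adjusted p = 0.9), and with only libraries named R the difference was 0.30 (limma adjusted p = 0.87), where RM 1 is the single RM library. It was also lost with Sham 1 and Sham 6 (-2.68 ± 1.24, limma adjusted p = 0.11), edgeR (-1.62, adjusted p = 0.092) and DESeq2 (-1.63, adjusted p = 0.059). In HS the difference passed without HS 3 (-2.22, limma adjusted p = 0.04) and in a fit of the HS and Sham libraries alone (limma adjusted p = 0.043). With Sham 1 and Sham 6 the differences in HS and RM-HS were -1.82 ± 1.27 and -1.24 ± 1.39, and neither passed (limma adjusted p = 0.31 and 0.54). Between the pair of urea carrier genes the table holds 1 unnamed row, at chr18:74506268-74506669, which stood at 21.2 to 41.1 normalized reads in Sham, 0 to 25.4 in RM, 0 to 8.12 in HS and 0 to 6.98 in RM-HS.

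Genes listed as markers of the medullary collecting duct were lower beside the urea carriers. Of 9 tested medullary collecting duct markers, among them the water channel Aqp2 and the vasopressin receptor Avpr2, 8 were lower than in Sham in each of the 3 groups, with median differences of -1.88, -1.57 and -1.73 in RM, HS and RM-HS beside -0.04, -0.03 and -0.03 over all tested genes. Their summed level ran from 35163 to 91924 normalized reads in Sham, 13340 to 40681 in RM, 15347 to 23696 in HS and 8822 to 21473 in RM-HS, with RM 1 at the top of its group. None of these markers was at 0 except Elf5, in 1 RM library. In Sham 4, Aqp2 made up 57670 of the summed 91924. Whether the listed genes mark the medullary part of the duct alone was not tested. With the pair of controls, 5, 2 and 5 of the 9 were lower. Of 8 tested thin limb markers, 5, 3 and 5 were lower and 1, the tight junction gene Cldn4, was higher in each group. The summed level of that list did not fall with these calls: it ran from 37020 to 91960 in Sham, 21948 to 106677 in RM, 36049 to 63806 in HS and 49100 to 89106 in RM-HS, so that every group overlapped Sham. Of 4 tested genes of the descending vasa recta and medullary endothelium, 2, 2 and 1 were lower and none higher. That list summed to 81747 to 113370 in Sham, 70492 to 99645 in RM, 68201 to 87124 in HS and 82165 to 95159 in RM-HS. It includes the water channel Aqp1, and the part of each gene in its sums is not given. The sums are therefore not read as a level of those vessels. With the pair of controls, 0, 1 and 1 of the thin limb markers and 1 of the 4 vascular genes in each group were lower. Over all tested genes, 53%, 46.4% and 42.3% were called in either direction in RM, HS and RM-HS with all Sham libraries. With the pair these shares were 32.9%, 25.7% and 27.2%. No loss of thin limb or vascular cells is read from these counts.

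The list of papillary surface and urothelium genes, of which 4 were tested, summed to 320 to 2254 in Sham, 26.6 to 886 in RM, 73.6 to 644 in HS and 69.7 to 805 in RM-HS. RM 1 and RM-HS 2, the libraries with the most Slc14a2 in their groups, also had the highest sums of these genes, at 886 and 805. This did not hold in Sham and HS. Sham 4 and HS 4 had the most Slc14a2 there, with sums of 1176 and 196. The highest sums were those of Sham 2 and HS 2, at 2254 and 644. Psca made up most of these sums, and Upk2 was at 0 in 5 of 6 RM libraries. Red cell genes, which bear on Slc14a1, summed to 225429 to 1322657 in Sham, 368575 to 1000185 in RM, 86441 to 469893 in HS and 376142 to 1080004 in RM-HS. Of 7 tested endothelial genes, 2 were higher in each group and 1, 4 and 2 were lower in RM, HS and RM-HS. Over all tested genes 53%, 46.4% and 42.3% were called in either direction. The endothelial list summed to 7481 to 11944 in Sham, 8318 to 13092 in RM, 6497 to 7698 in HS and 7893 to 8171 in RM-HS. The part of these cell types in the Slc14a1 and Slc14a2 values was not tested, and in bulk samples fewer cells of a type and less RNA per cell cannot be told apart.

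**Figure D2:**
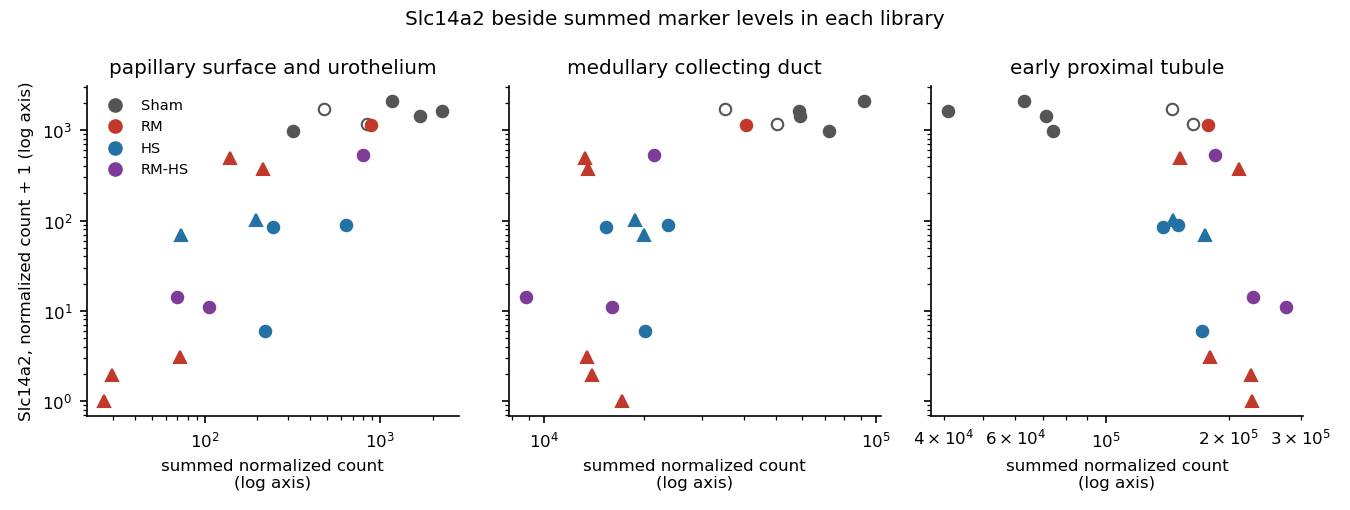
Slc14a2 in every library (normalized read count plus 1, log axis) against the summed normalized read count (log axis) of papillary surface and urothelium, medullary collecting duct and early proximal tubule genes in the same library; each point is a library, coloured by group, with triangles for libraries named S and open circles for Sham 1 and Sham 6. Sham 1 and Sham 6, at 1700 and 1188 normalized reads of Slc14a2, lie above all 14 injured libraries, of which RM 1 is the highest at 1133.

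Slc5a3, the sodium-coupled myo-inositol carrier, was the only member that rose in all 3 groups. Sham ran from 556 through a median of 797 to 1239 normalized reads. RM ran from 4004 through a median of 5636 to 15875, HS stood at 1978, 2637, 6205, 9354 and 3385, and RM-HS at 4719, 6258 and 5731. All 14 injured libraries lay above all 6 Sham libraries, with HS 1 the nearest. Groups separated in this way, with every injured library higher, in 6.68% of tested genes.

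The mean of Slc5a3 was 8.58 times that of Sham in RM, 5.69 times in HS and 6.72 times in RM-HS. On the log2 scale it rose by 2.97 ± 0.34 in RM (limma adjusted p = 7.2e-07), by 2.32 ± 0.36 in HS (limma adjusted p = 3.7e-05) and by 2.79 ± 0.42 in RM-HS (limma adjusted p = 3.4e-05). Against Sham 1 and Sham 6 the rises were 2.83 ± 0.52, 2.18 ± 0.53 and 2.65 ± 0.58 (limma adjusted p = 0.0007, 0.0078 and 0.0035). The call against Sham was kept in all 3 groups under each alternative tried. RM 3, at 15875, was more than any other library, and the rise in RM lay between 2.71 and 3.10 when any single library was left out.

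Slc6a12, the betaine and GABA carrier, went the other way. Sham ran from 310 through a median of 678 to 789 normalized reads, and RM from 42.2 through a median of 71.4 to 261. HS stood at 121, 183, 135, 199 and 218, and RM-HS at 38.1, 85.0 and 38.5. All 14 injured libraries were below all 6 Sham libraries, a pattern in that direction held by 4.9% of tested genes. Within RM, RM 1 and RM 3 were higher than the rest, at 261 and 245.

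The mean of Slc6a12 was 4.81 times lower in RM, 3.51 times lower in HS and 11.2 times lower in RM-HS. On the log2 scale the falls were -2.54 ± 0.40 in RM (limma adjusted p = 2.7e-05), -1.76 ± 0.42 in HS (limma adjusted p = 0.0019) and -3.48 ± 0.49 in RM-HS (limma adjusted p = 1.7e-05). Against Sham 1 and Sham 6, at 650 and 310, the RM and RM-HS calls stood (-2.20 ± 0.59 and -3.14 ± 0.66, limma adjusted p = 0.0096 and 0.0027), whereas that in HS did not (-1.42 ± 0.61, limma adjusted p = 0.095). With only libraries named R, the RM difference was -1.11 (limma adjusted p = 0.26), but there RM 1, the RM library with the most Slc6a12, stands alone for RM.

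Slc6a6, the taurine carrier and the member with a TonE match near its start, ran from 1393 through a median of 2359 to 3502 normalized reads in Sham and from 2093 through 2639 to 2797 in RM. HS stood at 2565, 3050, 2498, 3953 and 2727, and RM-HS at 2683, 1321 and 1891. Every group overlapped Sham. The log2 differences were 0.15 ± 0.18 in RM (95% interval -0.23 to 0.54), 0.36 ± 0.19 in HS (-0.04 to 0.77) and -0.26 ± 0.23 in RM-HS (-0.73 to 0.21), with limma adjusted p = 0.51, 0.13 and 0.36. Without Sham 1, the highest Sham library, the HS difference passed (0.49, limma adjusted p = 0.032). Against Sham 1 and Sham 6, at 3502 and 2494, the differences were -0.23 ± 0.22 in RM, -0.02 ± 0.23 in HS and -0.65 ± 0.25 in RM-HS. None passed (limma adjusted p = 0.44, 0.96 and 0.061), and the signs in RM and HS changed with these controls.

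**Figure D3:**
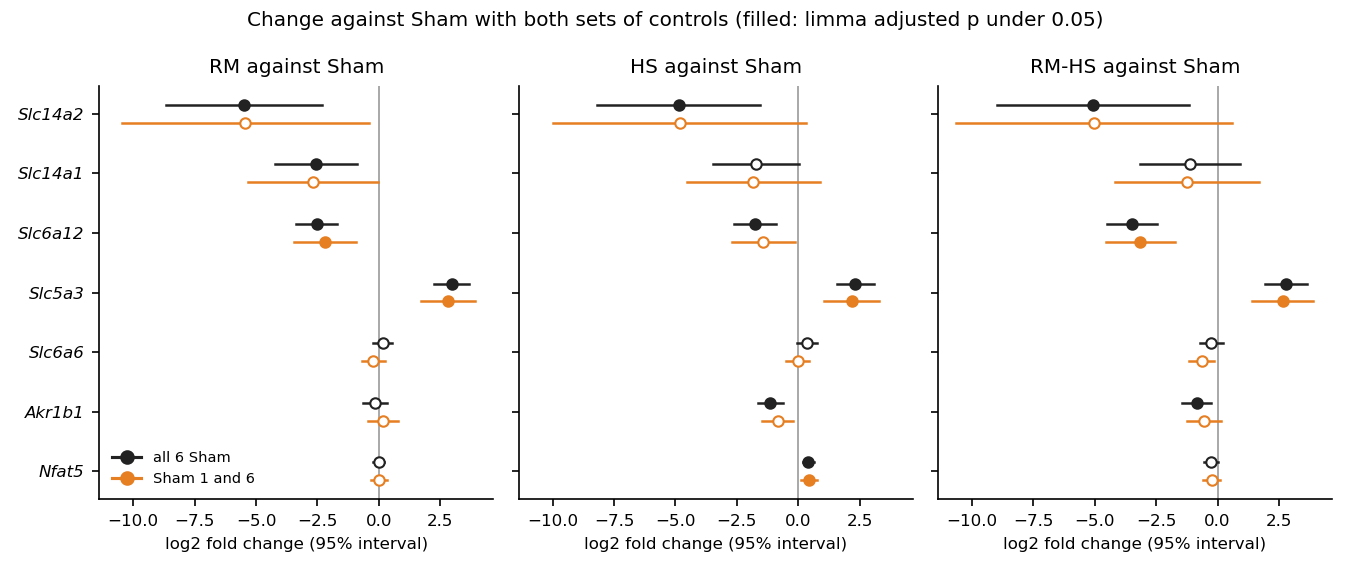
Log2 fold change of each of the 7 genes against Sham in RM, HS and RM-HS (limma, on normalized read count plus 1), with all 6 Sham libraries and with Sham 1 and Sham 6 as controls; points are estimates, filled where the limma adjusted p is under 0.05, and bars are 95% intervals. Slc5a3 lies to the right of 0 in every comparison, between 2.18 and 2.97, and Slc14a2 has the widest intervals.

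Akr1b1, which reduces glucose to the osmolyte sorbitol, ran from 790 through a median of 985 to 1899 normalized reads in Sham and from 647 through 952 to 1492 in RM. HS stood at 452, 653, 522, 483 and 426, below every Sham library, and RM-HS at 612, 945 and 389, which overlapped Sham through RM-HS 2. In HS it fell by 1.13 ± 0.25 (limma adjusted p = 0.00089), to 43.6% of the Sham mean. In RM-HS it fell by 0.86 ± 0.29 (limma adjusted p = 0.021), a call lost without RM-HS 3 (limma adjusted p = 0.19), without RM-HS 1 (limma adjusted p = 0.061) and in a fit of those groups alone (limma adjusted p = 0.062). In RM the difference was -0.14 ± 0.24 (limma adjusted p = 0.63, 95% interval -0.63 to 0.35). Against Sham 1 and Sham 6, at 977 and 816, the differences were -0.83 ± 0.30 in HS and -0.55 ± 0.33 in RM-HS, and neither passed (limma adjusted p = 0.0502 and 0.22).

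Nfat5 itself was called in HS alone among the 3 comparisons. Sham ran from 2472 through a median of 3142 to 3663 normalized reads and RM from 2738 through 2947 to 3793. HS stood at 3818, 3823, 3292, 4879 and 4829, with 4 of 5 libraries above all Sham libraries, and RM-HS at 2730, 2518 and 2436. In HS it rose by 0.42 ± 0.12 (limma adjusted p = 0.0058), a mean 1.34 times that of Sham, and by 0.43 ± 0.15 with Sham 1 and Sham 6 (limma adjusted p = 0.0477). The HS 4 and HS 5 libraries, whose names begin with S, were the highest. With only libraries named R the difference was 0.25 (limma adjusted p = 0.14). In RM and RM-HS the differences were -0.00 ± 0.11 (95% interval -0.23 to 0.22, limma adjusted p = 0.97) and -0.26 ± 0.13 (-0.54 to 0.02, limma adjusted p = 0.13), the latter passing under upper quartile scaling (-0.39, limma adjusted p = 0.022).

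Members with no overlap between the injury group and Sham numbered 2 in RM (Slc5a3 and Slc6a12), 4 in HS (these, Slc14a2 and Akr1b1) and 3 in RM-HS (these and Slc14a2). Those were 28.6%, 57.1% and 42.9% of the members, beside 25.7%, 25.9% and 32.5% of all tested genes. When only Sham 1 and Sham 6 served as controls, 2 members were called in each group. The backgrounds were then 32.9% in RM, 25.7% in HS and 27.2% in RM-HS. Slc5a3 was among the called members in all 3, Slc6a12 in RM and RM-HS, and Nfat5 in HS. With the mean of the early proximal tubule genes as a covariate and all Sham libraries, the members called were Slc5a3 and Slc6a12 in RM, Slc5a3 in HS, and Slc5a3, Slc6a12 and Slc6a6 in RM-HS.

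The injury groups were then set against each other, and Sham libraries enter these differences only through the shared estimate of the spread. Between RM-HS and RM no member passed: limma called 0 of 7, edgeR 0 and DESeq2 0, and 1 member, Akr1b1, had an unadjusted limma p under 0.05 (-0.71 ± 0.29, adjusted p = 0.23). The background there was 1.08% of tested genes. Slc5a3 differed by -0.19 ± 0.42 (95% interval -1.06 to 0.69), Slc6a12 by -0.94 ± 0.49 (-1.96 to 0.08) and Slc14a2 by 0.41 ± 1.87 (-3.48 to 4.31), so that differences of many fold in Slc14a2 lay within its interval.

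Between RM-HS and HS, 2 of 7 members passed, both lower in RM-HS, on a background of 20.6% called in either direction and 10.6% called lower. They were Nfat5 (-0.67 ± 0.14, limma adjusted p = 0.0024), and Slc6a12 (-1.72 ± 0.50, limma adjusted p = 0.021). All 3 RM-HS libraries of each gene lay below all 5 HS libraries. The share of all tested genes separated in this way was not counted, so nothing more is read from it. The Slc6a12 call was lost without RM-HS 1 (limma adjusted p = 0.086) or RM-HS 3 (limma adjusted p = 0.089). Slc6a6 differed by -0.63 ± 0.23 (limma adjusted p = 0.061) and passed without RM-HS 1 (-0.88, limma adjusted p = 0.023), without Sham 1 (limma adjusted p = 0.037) or Sham 2 (limma adjusted p = 0.032), and with Sham 1 and Sham 6 as the only Sham libraries in the fit (limma adjusted p = 0.032).

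Between RM and HS, 2 of 7 passed on a background of 23.8%. Akr1b1 was higher in RM by 0.99 ± 0.25 (limma adjusted p = 0.0062), and its groups met only at RM 1, which at 647 lay below HS 2 at 653. Nfat5 was lower in RM (-0.42 ± 0.12, limma adjusted p = 0.012), with RM 3 at 3793 inside the HS range. RM and HS also differ in their name letters, and with only libraries named R, where RM 1 stands alone, neither passed (0.27 and -0.30, limma adjusted p = 0.82 and 0.48). Slc5a3 (0.65 ± 0.36, 95% interval -0.09 to 1.40) and Slc6a12 (-0.78 ± 0.42, -1.65 to 0.09) did not pass, with limma adjusted p = 0.2 and 0.19.

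**Figure D4:**
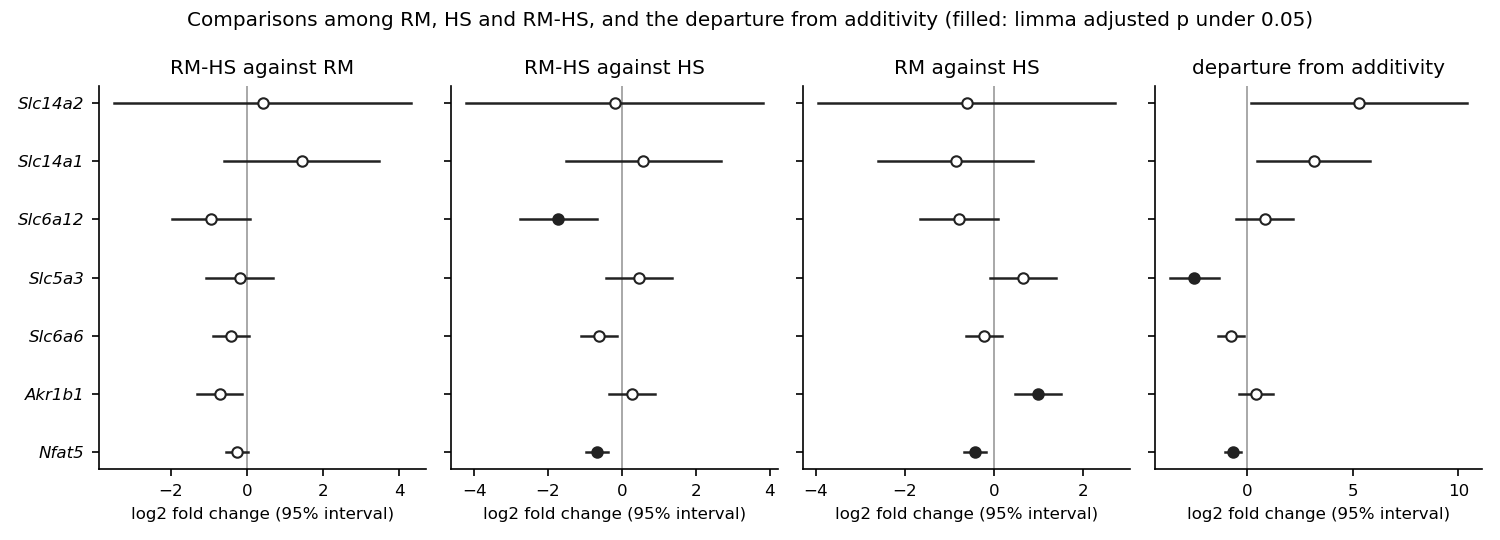
Log2 fold change of each of the 7 genes between the injury groups and the departure from additivity (limma, on normalized read count plus 1); points are estimates, filled where the limma adjusted p is under 0.05, and bars are 95% intervals. Nfat5 and Slc6a12 are lower in RM-HS than in HS, at -0.67 and -1.72, and Slc5a3 has a departure of -2.51.

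If the effects of RM and HS simply added on the log2 scale, the combined group would differ from Sham by their sum. The departure from that sum was below 0 for Slc5a3 (-2.51 ± 0.55, limma adjusted p = 0.002), and for Nfat5 (-0.67 ± 0.18, limma adjusted p = 0.0073). These were 2 of 7 members, on a background of 31.7% called and 16.8% called below 0. For Slc5a3 the separate rises of 2.97 and 2.32 stood beside a combined rise of 2.79, and for Nfat5 the values were -0.00, 0.42 and -0.26. Slc14a2, called lower in each group, departed by 5.29 ± 2.46 (limma adjusted p = 0.11), Slc14a1 by 3.15 ± 1.28 (limma adjusted p = 0.067) and Slc6a6 by -0.78 ± 0.30 (limma adjusted p = 0.0507). With the name letter as a covariate neither Slc5a3 (-2.03, limma adjusted p = 0.13) nor Nfat5 (-0.34, limma adjusted p = 0.4) passed. For Slc14a2 the separate falls add to -10.36, next to the -10.52 at which a library would be at 0, so its departure could hardly have been below 0. Without RM 1 they add to -11.38, past that limit, and the departure of 6.31 (limma adjusted p = 0.037) is above 0 by construction. Slc14a1 passed without RM 1, RM 3 or HS 3 (limma adjusted p = 0.018, 0.0484 and 0.033), and Slc6a6 passed without Sham 1, RM 5, HS 1, HS 3 or RM-HS 1 (limma adjusted p between 0.014 and 0.0494). Slc6a6 also passed with a pseudocount of 8, a filter of 50 in 3 libraries and trimmed mean scaling (limma adjusted p = 0.0497, 0.0457 and 0.043). Against Sham 1 and Sham 6 its departure was -0.40 (limma adjusted p = 0.37).

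Of 12 other tested genes that respond to tonicity, 6 were higher and 4 lower in RM, 5 and 4 in HS, and 4 and 1 in RM-HS, with medians of 0.59, -0.00 and 0.13. Over all tested genes 53%, 46.4% and 42.3% were called in either direction, and nothing particular to this list is read from its counts. Sgk1, a salt- and steroid-induced kinase, rose by 1.43 ± 0.13, 2.09 ± 0.13 and 1.74 ± 0.15 in RM, HS and RM-HS (limma adjusted p = 3e-08, 1.2e-08 and 1.1e-07). Slc38a2, an amino acid carrier induced by hypertonic stress, rose by 1.38, 0.97 and 1.17, and Hspa4l, a chaperone, by 0.85, 0.88 and 0.57, both in all 3. Aqp2 fell in all 3 (-2.04 ± 0.33, -1.78 ± 0.35 and -2.56 ± 0.41). Against Sham 1 and Sham 6 the calls of Aqp2 in HS (limma adjusted p = 0.066) and Hspa4l in RM-HS (limma adjusted p = 0.23) were lost, and 5 and 1, 4 and 0, and 3 and 1 of the 12 were called.

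Of 14 tested enzymes that make or break down osmolytes, 5 were higher and 4 lower in RM, 2 and 5 in HS, and 3 and 2 in RM-HS, with medians within 0.04 of 0. These counts were near the background of 53%, 46.4% and 42.3% called. Sord, which turns sorbitol into fructose, rose in RM (1.0 ± 0.14, limma adjusted p = 5.8e-06) and RM-HS (1.05 ± 0.17, limma adjusted p = 6.6e-05), and in HS the difference was 0.27 ± 0.14 (limma adjusted p = 0.13). Khk, which phosphorylates fructose, rose in RM (0.28, limma adjusted p = 0.033) and fell in HS (-0.74, limma adjusted p = 3.8e-05). Impa2, an inositol monophosphatase, fell in all 3 (-0.78, -0.46 and -0.50), and Aldh7a1, which oxidises betaine aldehyde to betaine, rose by 0.74, 0.49 and 0.95. Relative to Sham 1 and Sham 6, Impa2 was lower in all 3 groups and the call of Aldh7a1 in HS was lost (0.14, limma adjusted p = 0.49).

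Of 6 other tested carriers of osmolytes and polyols, 2 were higher in each group, and 0, 1 and 1 were lower, also near that background. Slc6a8, the creatine carrier, rose by 1.14 ± 0.18, 1.19 ± 0.19 and 1.32 ± 0.22, and Slc44a1, a choline carrier, by 0.59, 0.56 and 0.71. Slc2a13, the proton-coupled inositol carrier, fell in HS (-1.42 ± 0.23) and RM-HS (-1.36 ± 0.27), beside the rise of Slc5a3. Relative to Sham 1 and Sham 6 the rises of Slc6a8 were 0.41, 0.46 and 0.60, all still called, and those of Slc44a1 were 0.61, 0.59 and 0.73, of which the one in HS was no longer called (limma adjusted p = 0.069).

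Of 8 partners in urea production and recycling, 4 were higher and 3 lower in RM, 4 and 2 in HS, and 3 and 0 in RM-HS, beside 53%, 46.4% and 42.3% of all tested genes called. Asl and Ass1, which make arginine in the proximal tubule, rose by 1.46, 1.09 and 1.81 and by 1.18, 0.75 and 1.45. Arg2, the mitochondrial arginase, fell in RM (-0.98 ± 0.19) and HS (-0.63 ± 0.20). Early proximal tubule markers were also higher: 7, 5 and 7 of 7 passed with all 6 Sham libraries as controls. Their summed level was 40978 to 163347 in Sham, 152188 to 228051 in RM, 138038 to 175117 in HS and 184913 to 276019 in RM-HS. Sham 1 and Sham 6 both lay within the HS range, and Sham 6 also within the RM range. Of 3 late proximal tubule markers, 1 was higher and 2 were lower in each group, with sums of 62187 to 108087 in Sham, 44250 to 82804 in RM, 41985 to 62719 in HS and 45851 to 55534 in RM-HS. Relative to Sham 1 and Sham 6, at sums of 145311 and 163347, Ass1 differed in HS by 0.02 ± 0.17 (limma adjusted p = 0.95), Asl in HS by 0.38 (limma adjusted p = 0.1), and Arg2 passed in no group. The part of that segment in these results was not tested further.

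**Figure D5:**
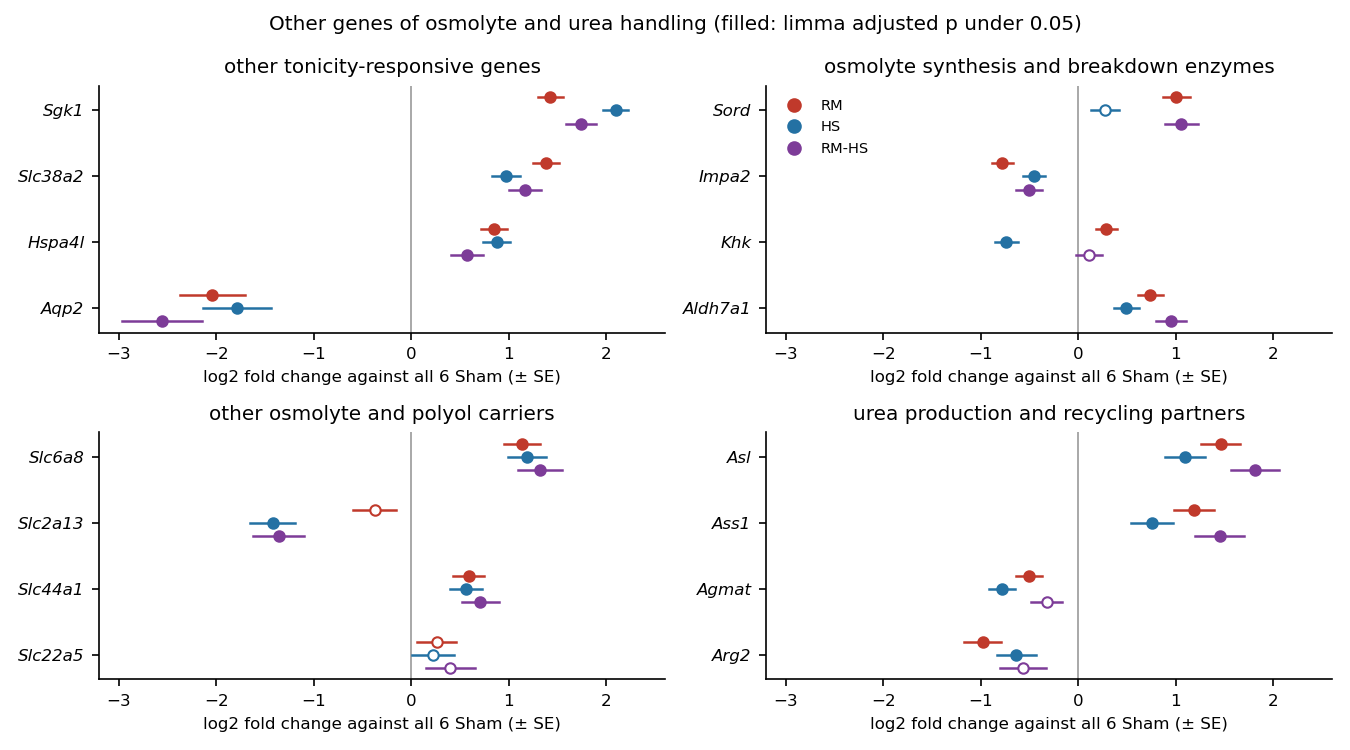
Log2 fold change against Sham (limma, on normalized read count plus 1) of the named genes from 4 lists around the members, in RM, HS and RM-HS against all 6 Sham libraries; bars are standard errors and filled points have a limma adjusted p under 0.05. Sgk1 lies between 1.43 and 2.09 in the 3 groups and Aqp2 between -2.56 and -1.78, and Khk is above 0 in RM and below it in HS.

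Genes with patterns most like each member were sought among 11166 tested genes with a symbol and a mean of at least 50 normalized reads, by Pearson's r of log2(value + 1). These are descriptions over libraries that share groups, and the group differences carry much of them. Over all 20 libraries Slc14a2 ran closely with Corin and Atp2b3, each at r = 0.92. Slc6a12 ran most like L1cam (0.96), Sim2 (0.95) and Mycbpap (0.95). Slc5a3 ran most like Sec61a1 (0.96), a subunit of the protein-conducting channel of the endoplasmic reticulum, Gna13 (0.93) and Arid5b (0.93). Nfat5 ran most like Zfp260, Dr1 and Lrif1, at 0.83 to 0.84, Slc6a6 like Myo1d, Cpd and Cdc42bpa, at 0.82 to 0.84, Akr1b1 like Ly6c, Tyrobp and Tmsb4x, at 0.84 to 0.85, and Slc14a1 like Hdac1, Wfdc1 and Atp2b3, at 0.80 to 0.81.

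Within the 14 injured libraries, where Sham adds nothing, the closest genes were mostly others. Slc14a2 ran closely with Spock2 (0.88) and Plet1 (0.86). Slc5a3 ran most like the matrix protein gene Thbs1 (0.84), Galr2 (0.84) and the small heat shock protein gene Hspb1 (0.83). Akr1b1 ran like Gnl3 (0.96), Kansl2 (0.94) and Nup153 (0.94), and Nfat5 like Dstyk (0.93), Rngtt (0.92) and Dip2c (0.92). Slc6a12 ran like Mycbpap (0.91), Chst9 (0.90) and Dck (0.89), Slc14a1 like Smarcd3, Wfdc1 and Dexi, at 0.85 to 0.86, and Slc6a6 like Stat5b, Lrp6 and Smc3, each at 0.86.

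Among the members, over all 20 libraries, Slc14a2 ran with Slc6a12 (r = 0.80) and with its neighbour Slc14a1 (0.73), and Slc5a3 ran against Slc6a12 (-0.65). Within the 14 injured libraries Slc14a2 still ran with both Slc6a12 and Slc14a1 (0.61 each), whereas r between Slc5a3 and Slc6a12 was 0.19. Nfat5 there ran with Slc6a12 (0.72) and Slc6a6 (0.66).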

How the data were processed

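RNA from frozen rat kidneys went into stranded mRNA libraries read from both ends (labels' protocols). Reads were checked with FastQC 0.11.2, Picard 1.119 and SAMtools 1.0, aligned with STAR to rn6 and, per the submitters' processing notes, assigned to genes by featureCounts (Subread 1.5.0). The deposited signal values are read counts that the authors normalized with DESeq2, per the same notes, and other settings stand in no source used here. Dividing by each library's smallest step gave back reads, and 100% of 327836 values above 0 came within 0.1 read of a whole number. No 2 libraries of a group agreed within sampling noise.

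Groups came from the labels, and replicate numbers follow the listing order. Rows with at least 10 in at least 3 libraries (15954) entered a single limma fit of the 4 group means (limma 3.58.1, R 4.3.3, trended variance) to log2(value + 1), and p-values were adjusted by Benjamini-Hochberg over all rows, with 0.05 as the threshold. The departure from additivity was the RM-HS difference from Sham less the sum of the RM and HS differences. Each library held 23.3 to 51.9 M non-mitochondrial reads. The parts of counting error and of spread between libraries in the precision were not separated for any member. For Slc14a1 and Slc14a2 counting error adds to a spread that was itself wide, at 0 to 63 and 0 to 1070 reads in RM.

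All 7 members are named. From each list of related genes up to 4 were named by smallest adjusted p against Sham, for each member the 3 genes with the highest r (of which 1 is not reported here), and segment markers by libraries or ranges; Psca, Upk2, Elf5 and Avpr2 were singled out after their values were seen. The members and lists were chosen with earlier results of these data known. Alternatives were pseudocounts of 0.5 and 8, filters, other scalings, fits of fewer groups or libraries, covariates, other controls, leaving out each library, and the count tools edgeR (4.0.16) and, on the same recovered reads, DESeq2 (1.42.0). The fit was tested on simulated data.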

Additional observations from a re-analysis of the deposited data

Results flagged for a closer look

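Slc5a3 in RM 3 stood at 15875 normalized reads, far from the other 5 RM libraries, which lay between 4004 and 7249; its gap to the next was 0.73 of the group's range. Nfat5 in the same library stood at 3793, with the other 5 RM libraries between 2738 and 3016 and a gap of 0.74 of the range. Of 21 sets of a gene in a group that were examined in this way, 2 stood out, and chance alone picks about 1 in 20. Further values concern a difference between effects. The departure from additivity was -2.51 for Slc5a3 and -0.67 for Nfat5 (limma adjusted p = 0.002 and 0.0073), and neither passed with the name letter as a covariate.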

How the results depend on the processing

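Counts are of genes called, then of members called. Against 8455 genes and 4 members, RM against Sham gave 4551 and 2 with the name letter as covariate, 766 and 1 with libraries named R, 5250 and 2 with Sham 1 and Sham 6 as controls, 5518 and 2 with the early proximal tubule mean as covariate, and 2 members each with edgeR and DESeq2. HS against Sham (7410 and 5) gave 4105 and 2 with Sham 1 and Sham 6, and 4801 and 1 with the tubule covariate. RM-HS against Sham (6749 and 4) gave 4347 and 2 with Sham 1 and Sham 6. RM-HS against RM (173 and 0) gave 42 genes with only the groups compared, 0 with the letter, 0 with R libraries, 356 with the tubule covariate and 499 with DESeq2. With R libraries, RM-HS against HS (3287 and 2) gave 1203 genes, and RM against HS (3791 and 2) gave 195 and 0. The departure from additivity (5054 and 2) gave 617 and 0 with the letter, 0 and 0 with R libraries, and 3151 genes with Sham 1 and Sham 6. Leaving out each library gave, for genes and members, 7828 to 8537 and 4 to 4 in RM, 6647 to 7509 and 4 to 6 in HS, 5051 to 6862 and 2 to 4 in RM-HS against Sham, 21 to 480 and 0 to 0 in RM-HS against RM, 2015 to 3547 and 1 to 3 in RM-HS against HS, 3026 to 4016 and 2 to 2 in RM against HS, and 3989 to 5518 and 2 to 4 for the departure. Of the called member values, that of Slc14a1 in RM changed sign, to 0.30 with R libraries, and several values that were not called also changed sign. Upper quartile scaling moved the median of all genes against Sham to -0.18, -0.15 and -0.16, from -0.04, -0.03 and -0.03. The cause of these changes was not tested, beyond fewer libraries in the smaller fits. No paired analysis was possible because the labels give no replicate numbers that groups share. Counting error adds to the spread between libraries for Slc14a1, at 138 reads or fewer in every library, and Slc14a2, at 12 or fewer in 6 libraries. DESeq2 gave no adjusted p for Slc14a1 between RM-HS and RM.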
